A study of Mus musculus with 30 samples.

Results

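Liver transcripts of female mouse offspring exposed through their mothers to bisphenol S (BPS) were compared with those of female offspring exposed in the same way to 17β-estradiol (E2), at a single matched dose. The comparison takes 6 of the 30 libraries of the series, the 3 female BPS livers and the 3 female E2 livers, chosen by their labels alone. Female control livers (n = 3) are given beside them as a level, and the 6 male BPS and E2 livers serve as a second comparison. BPS is a sulfone-bridged bisphenol used as a substitute for bisphenol A, and E2 is the main natural oestrogen. In the study, which also holds 2 other BPS-type compounds, 8 ICR dams per group drank water that contained 10 ng/mL of the compound in 0.001% ethanol, set to 5 µg per kg of body weight a day. Exposure lasted about 40 days, from the first day of pregnancy to weaning, and control dams received the ethanol alone. ICR is an outbred stock, so litters differ in genotype. Each library holds bulk liver RNA from 1 offspring, taken when it was 10 weeks old. The 3 animals of each sex in a group were drawn from different dams. The offspring themselves received nothing after weaning, so a difference between groups at 10 weeks lies weeks after the end of exposure.

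Of 17990 genes in the table, 13874 passed the filter on low counts. At an adjusted p under 0.05 (edgeR quasi-likelihood test, Benjamini-Hochberg adjustment over all genes tested), 3548 genes differed between BPS and E2 females, 25.6% of those tested. BPS livers were higher for 1862 of them (13.4%) and lower for 1686 (12.2%). Most differences were small. The median log2 fold change was 0.40 among the genes higher in BPS and −0.42 among those lower, 237 genes were at least 2-fold higher and 203 at least 2-fold lower. Over all genes tested the median was 0.00. The 3 BPS libraries lay entirely above the 3 E2 libraries for 18.5% of genes and entirely below them for 17.8%. Levels are in CPM, read counts scaled to a common library size after TMM correction. A value after ± is the standard deviation over 3 libraries beside CPM and the standard error of the fit beside a log2 fold change. Fold changes are BPS minus E2, so a positive one means higher in BPS, and a value with ± in parentheses after a gene name is its log2 fold change.

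The 6 libraries held 33360839 to 37091748 counts, with TMM factors of 0.951 to 1.00 and 15167 to 15564 genes above 0. Correlations of log2 CPM were 0.983 to 0.986 within a group and 0.973 to 0.975 between BPS and E2. All pairs of replicates differed by more than sampling noise, so each was counted as a sample of its own. E2 replicates 1 and 2 were the least alike pair, with a median chi-square of 5.23 per gene, against 1.94 for the most alike pair, BPS replicates 2 and 3. Y-linked genes summed to at most 0.473 CPM in the 6 libraries, which fits their labelled sex. Albumin (Alb), the main product of hepatocytes, averaged 96382 ± 6715 CPM in BPS livers and 97339 ± 1797 CPM in E2 livers, and its log2 fold change was −0.01 ± 0.06 (adjusted p = 0.896). P values rest on the spread among the 3 livers within a group, estimated jointly over the 5 female groups.

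Estradiol acts in hepatocytes mainly through oestrogen receptor alpha, the product of Esr1, and BPS is a far weaker ligand of that receptor. The liver is also one of the most rhythmic tissues: the CLOCK and BMAL1 proteins drive genes with E-box promoters through the day, and feeding drives the lipogenic genes. In mice the pattern of growth hormone secretion makes the adult liver differ between the sexes, with the major urinary proteins and many cytochrome P450 genes among the sex-biased products. Gene lists for these and other liver functions were used to order the results. Each female list count is to be read against the shares of all genes tested that were called, 13.4% higher and 12.2% lower.

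**Figure D1:**
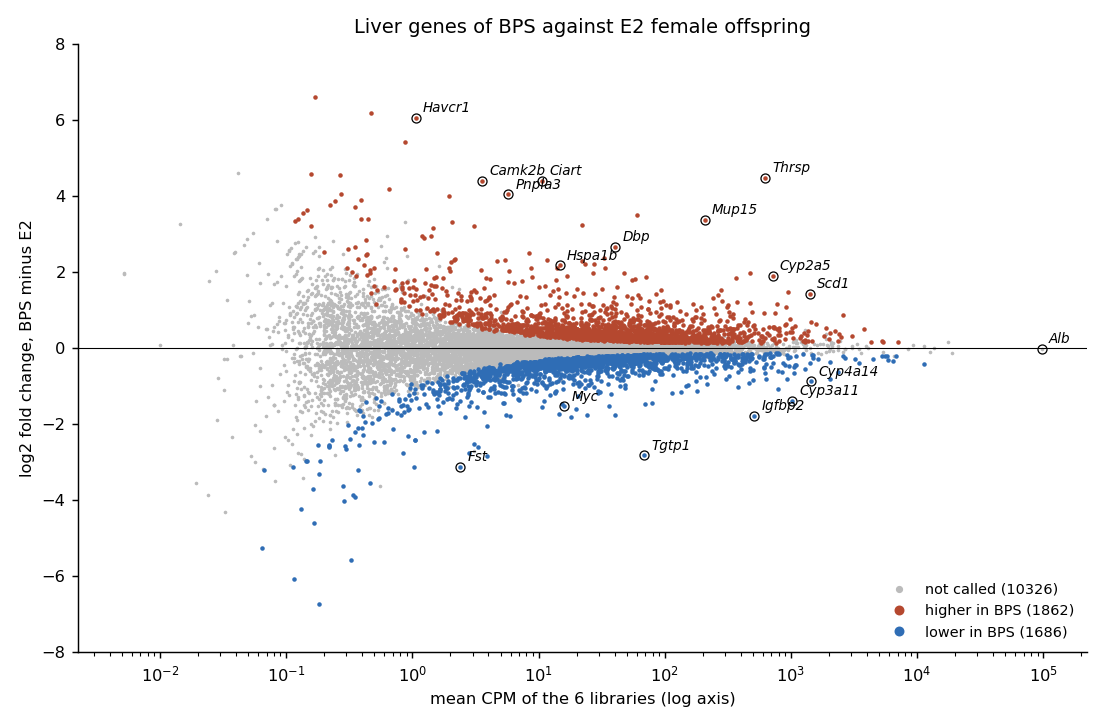
Each point is one of the 13874 genes tested. The x axis is the mean CPM of the 6 libraries on a log axis and the y axis the log2 fold change, BPS minus E2; red points are the 1862 genes higher and blue points the 1686 genes lower in BPS, and circles mark named genes. Thrsp stands alone at high level near a log2 fold change of 4.49, and Tgtp1 at −2.82, while Alb lies on the zero line.

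Genes driven directly by the circadian clock were higher in BPS livers throughout. All 16 members of the list of E-box and D-box outputs were called higher and none lower, with a median log2 fold change of 1.14, where 13.4% of all genes were called higher. Ciart, a repressor of the CLOCK-BMAL1 complex, had 18.5, 22.4 and 20.5 CPM in BPS livers, against 0.749, 0.863 and 1.26 CPM in E2 livers (21.2-fold, log2 fold change 4.41 ± 0.15, adjusted p = 1.53e-22). Its 3 E2 libraries were near 1 CPM, and control livers lay between the groups at 11.2, 11.9 and 11.1 CPM. Dbp, a transcription factor that relays the clock to metabolic genes through D-boxes, had 67.4, 76.8 and 65.9 CPM in BPS livers, against 11.1, 12.1 and 9.95 CPM in E2 livers (log2 fold change 2.66 ± 0.08, adjusted p = 4.54e-25). The groups did not overlap, and here control livers were the highest at 107, 107 and 109 CPM. Usp2, a deubiquitinase under clock control, had 34.3, 39.1 and 37 CPM in BPS livers, against 8.02, 7.57 and 6.84 CPM in E2 livers (log2 fold change 2.30 ± 0.09). The period genes, which encode the core repressors, were higher in BPS as well, Per2 by 2.11 ± 0.12, Per3 by 1.34 ± 0.12 and Per1 by 0.95 ± 0.08 on the log2 scale. So were Bhlhe40 (1.52 ± 0.06), a repressor of the same E-boxes, Wee1 (1.77 ± 0.13), a cell cycle kinase under clock control, and the D-box factor Tef (0.90 ± 0.06). The smallest changes on the list were those of the D-box factor Hlf (0.37 ± 0.07), the D-box repressor Nfil3 (0.38 ± 0.09) and the REV-ERB gene Nr1d1 (0.48 ± 0.08).

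The other arm of the clock differed less and in both directions. Of 11 tested activators and cryptochromes, 4 were higher and 2 lower in BPS (median 0.22), with 1 lower without BPS replicate 1 or 2 or E2 replicate 1 or 3, and 3 lower without E2 replicate 2. Arntl, which encodes BMAL1 itself, was lower, with 13.8, 10.6 and 11.5 CPM in BPS livers, against 20.4, 19.9 and 19.7 CPM in E2 livers (log2 fold change −0.74 ± 0.12, adjusted p = 1.08e-05), and control livers lay below both at 3.26, 2.97 and 2.62 CPM. The cryptochrome gene Cry1, a late repressor of the loop, was higher (0.66 ± 0.12), as was Cry2 (0.26 ± 0.07). Against the shared control livers, Dbp stood at −0.62 ± 0.07 in BPS and at −3.28 ± 0.08 in E2, Ciart at 0.85 ± 0.12 and −3.56 ± 0.16, and Arntl at 2.02 ± 0.14 and 2.76 ± 0.14, in log2 fold change. The mice were kept under a daily cycle of light and dark, but the hour at which the livers were taken is not given in the sources used here, and its part in these differences was not tested.

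The Ciart promoter is shown because Ciart had the largest change among the clock outputs and carries the E-box, the element bound by CLOCK and BMAL1, more than once. The window, from RefSeq on GRCm38.p6, is chr3:95882179-95882478 on the minus strand, 250 bases before to 50 bases after the start of the gene, with each CACGTG in capitals.

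Ciart: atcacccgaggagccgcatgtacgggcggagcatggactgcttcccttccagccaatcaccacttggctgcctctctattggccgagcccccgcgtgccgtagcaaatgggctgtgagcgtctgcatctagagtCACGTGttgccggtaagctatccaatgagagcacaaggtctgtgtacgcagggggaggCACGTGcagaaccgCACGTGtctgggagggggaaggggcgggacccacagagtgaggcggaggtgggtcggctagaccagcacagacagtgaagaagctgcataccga

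The window holds 3 such hexamers, the first at −116 from the start. The letters CACGTG, which read the same on both strands, occur in 7.15% of all 32851 promoter windows and in 11.2% of the 11055 tested genes with a window. They occur in 4 of the 13 clock outputs with a window (Bhlhe41, Ciart, Per1 and Tef). Among all genes higher in BPS the share was 11.5%, and it was 11.5% among those lower. These are matches of letters and no measure of binding.

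Genes of fatty acid synthesis were mostly higher in BPS. Of 21 members, 18 were higher in BPS and 1, the elongase Elovl5, was lower, with a median log2 fold change of 0.77. Thrsp, known as Spot 14 and a regulator of lipogenic flux, had the smallest p of all genes, with 1199, 1244 and 1154 CPM in BPS livers, against 53.4, 56.3 and 50.8 CPM in E2 livers (22.4-fold, log2 fold change 4.49 ± 0.06, adjusted p = 1.23e-34). Control livers lay between the groups at 685, 686 and 687 CPM. Pnpla3, a lipid droplet protein under SREBP1c control, had 9.4, 13.1 and 9.96 CPM in BPS livers, against 0.749, 0.374 and 0.824 CPM in E2 livers (log2 fold change 4.04 ± 0.23). Scd1, the stearoyl-CoA desaturase, had 1896, 2196 and 2107 CPM in BPS livers, against 753, 773 and 769 CPM in E2 livers (log2 fold change 1.43 ± 0.06, adjusted p = 5.42e-21). No Scd1 library of one group came near the other, and control livers, at 2265, 2237 and 2254 CPM, were close to those of BPS.

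The pathway moved along its length. Srebf1, the lipogenic transcription factor, averaged 126 ± 5.81 CPM in BPS livers and 60.3 ± 1.53 CPM in E2 livers. Acly, which makes cytosolic acetyl-CoA, averaged 236 ± 9.85 CPM in BPS livers and 117 ± 6.85 CPM in E2 livers, and the fatty acid synthase gene Fasn 328 ± 17.5 CPM in BPS livers and 159 ± 13.2 CPM in E2 livers. Against the shared control livers, Srebf1 stood at 0.05 ± 0.05 in BPS and −1.02 ± 0.06 in E2, Acly at −0.00 ± 0.05 and −1.01 ± 0.05, and Thrsp at 0.80 ± 0.06 and −3.68 ± 0.06, so E2 livers lay below control for all 3. The acetyl-CoA carboxylase genes Acaca (0.77 ± 0.07) and Acacb (1.12 ± 0.06), the elongase Elovl6 (1.37 ± 0.09) and Acss2 (0.84 ± 0.06), which activates acetate, were also higher in BPS. Elovl3 (0.17 ± 0.13) and Scd2 (0.04 ± 0.13) did not pass. Per transcript length, where levels of different genes can be set side by side, Thrsp averaged 1053 FPKM and Scd1 413 FPKM in BPS livers, against 47.6 and 155 FPKM in E2 livers, so Thrsp was the higher of the pair in BPS and the lower in E2. Triglyceride synthesis and lipid droplet genes did not move as a block: 4 of 20 were higher and 5 lower. Lpin1, a phosphatidate phosphatase, was the largest of the 4, with 481, 551 and 549 CPM in BPS livers, against 253, 194 and 231 CPM in E2 livers (log2 fold change 1.22 ± 0.07), and Dgat2, which makes the final acylation, followed (0.62 ± 0.05). The droplet coat genes Plin5 (−0.50 ± 0.07) and Plin3 (−0.47 ± 0.08) were lower in BPS.

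**Figure D2:**
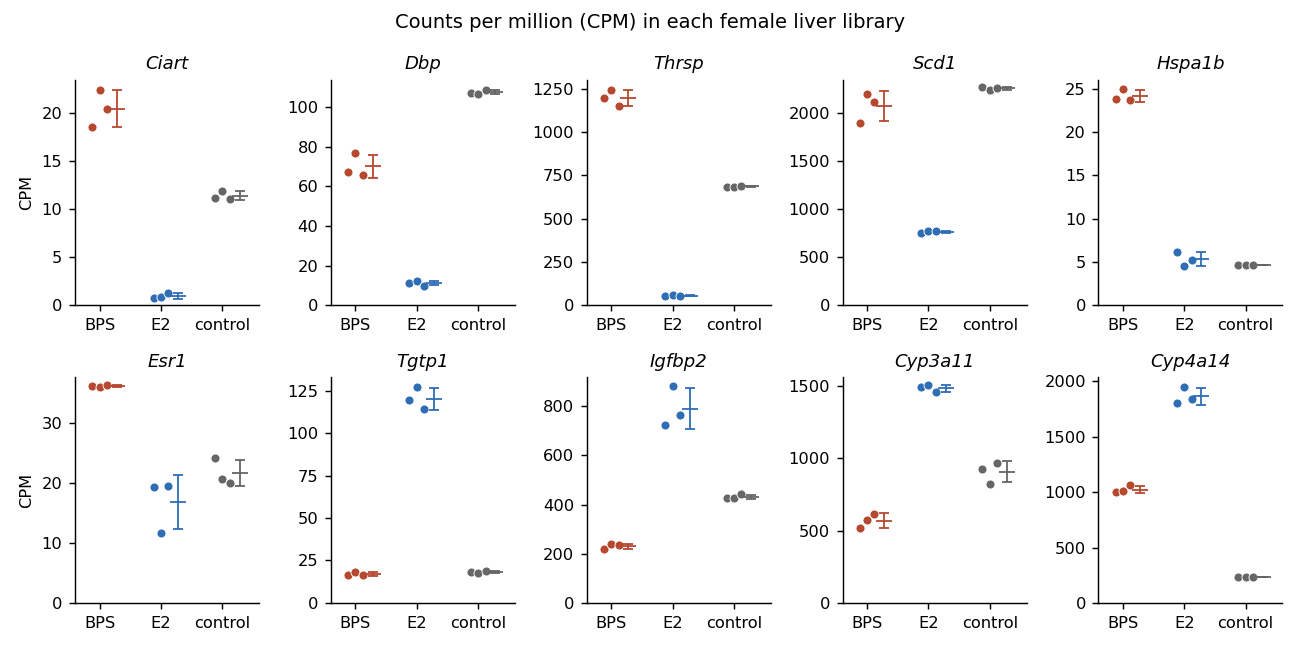
CPM of 10 genes in each female library, with BPS, E2 and control on the x axis; dots are libraries and the bar beside them the mean with its SD over 3 libraries. BPS and E2 libraries do not overlap in any of the 10 genes, which the naming rule required of Ciart, Thrsp and Tgtp1. The control libraries lie near BPS for Tgtp1, near E2 for Hspa1b and below both for Cyp4a14.

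Genes of glucose use and glycogen storage were higher in BPS, with 13 of 21 called higher, 1 lower and a median of 0.21. Gys2, the liver glycogen synthase, had 183, 200.2 and 190.4 CPM in BPS livers, against 98.6, 108 and 100.3 CPM in E2 livers (log2 fold change 0.90 ± 0.05, adjusted p = 7.5e-16). The groups did not overlap, and control livers had 218, 211 and 213 CPM. The glycogen phosphorylase gene Pygl (0.60 ± 0.05), the bifunctional glycolytic regulator Pfkfb1 (0.74 ± 0.07) and the glycogen targeting subunit Ppp1r3g (1.74 ± 0.17) were higher too. The gluconeogenic gene Pck1 averaged 3044 ± 96.3 CPM in BPS livers and 3045 ± 7.3 CPM in E2 livers with a log2 fold change of −0.00 ± 0.05, and G6pc (0.06 ± 0.06) did not pass either. The called member lower in BPS was Fbp1 (−0.16 ± 0.05), a gluconeogenic phosphatase, and no member was called lower without BPS replicate 3 or without E2 replicate 3.

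Sterol synthesis was split. Of 26 cholesterol synthesis genes and SREBP2 targets, 11 were higher and 6 lower in BPS (median 0.17). Aacs, which turns ketone bodies into sterol precursors, averaged 62.9 ± 2.71 CPM in BPS livers and 20.6 ± 1.08 CPM in E2 livers (1.61 ± 0.07). Hmgcs1, an early synthase of the pathway, was lower (−0.33 ± 0.05), as was the regulator Srebf2 (−0.48 ± 0.06). Sqle, the squalene epoxidase gene, was not called (0.08 ± 0.07). Both exposures stood above the shared controls for Hmgcs1, at 1.28 ± 0.05 in BPS and 1.61 ± 0.05 in E2.

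Fatty acid oxidation ran the other way. No member of the mitochondrial oxidation and ketogenesis list was higher in BPS and 11 of 21 were lower, with a median of −0.15, where 12.2% of all genes were called lower. Eci1, an enoyl-CoA isomerase, averaged 157 ± 6.27 CPM in BPS livers and 267 ± 16.6 CPM in E2 livers (−0.77 ± 0.06) and the medium-chain dehydrogenase gene Acadm 629.6 ± 22.2 CPM in BPS livers and 825 ± 26.3 CPM in E2 livers (−0.39 ± 0.05). The carnitine palmitoyltransferase gene Cpt1a (−0.15 ± 0.05) was lower by less. The peroxisomal and microsomal list was divided, with 8 of 21 higher and 8 lower. Cyp4a14, a fatty acid omega-hydroxylase and a classic PPARα target, had 999, 1009 and 1061 CPM in BPS livers, against 1804, 1949 and 1843 CPM in E2 livers (log2 fold change −0.87 ± 0.06, adjusted p = 9.34e-15). Control livers had only 236, 233 and 234 CPM, so both exposed groups stood above them, at 2.13 ± 0.06 in BPS and 2.99 ± 0.06 in E2. Cyp4a10 (−0.62 ± 0.07) and the bifunctional peroxisomal enzyme gene Ehhadh (−0.56 ± 0.05) were lower in BPS, while Cyp4a32 (1.24 ± 0.06) was higher. Cyp4a genes are near copies of each other, so reads may be shared among them. Ppara, which encodes the receptor, was higher in BPS, at 363 ± 21 CPM in BPS livers and 242 ± 35.6 CPM in E2 livers (0.59 ± 0.07), and Fgf21, its hormone target, averaged 6.48 ± 1.02 CPM in BPS livers and 8.81 ± 1.15 CPM in E2 livers without a call (−0.44 ± 0.18). Fgf21 was called lower with the 6 libraries alone (adjusted p = 0.0414) and without BPS replicate 3 (0.0471).

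In the insulin and growth hormone axis, 8 of 21 genes were higher and 4 lower in BPS. Igfbp2, a binding protein for insulin-like growth factors, was the most changed, with 218, 238 and 235 CPM in BPS livers, against 722, 884 and 765 CPM in E2 livers (log2 fold change −1.78 ± 0.06, adjusted p = 5.58e-23). BPS livers lay below and E2 livers above the controls, which had 427, 426 and 441 CPM. Igf1 averaged 1206 ± 100.1 CPM in BPS livers and 844 ± 21.1 CPM in E2 livers (0.51 ± 0.06), the growth hormone receptor gene Ghr 525 ± 35.9 CPM in BPS livers and 328 ± 3.86 CPM in E2 livers (0.68 ± 0.05) and Foxo3, a transcription factor restrained by insulin, 52.6 ± 3.46 CPM in BPS livers and 32.5 ± 3.68 CPM in E2 livers (0.70 ± 0.08). Igfbp1, another binding protein, was not called (0.08 ± 0.06) although both groups exceeded the controls, by 1.34 ± 0.06 in BPS and 1.26 ± 0.06 in E2.

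**Figure D3:**
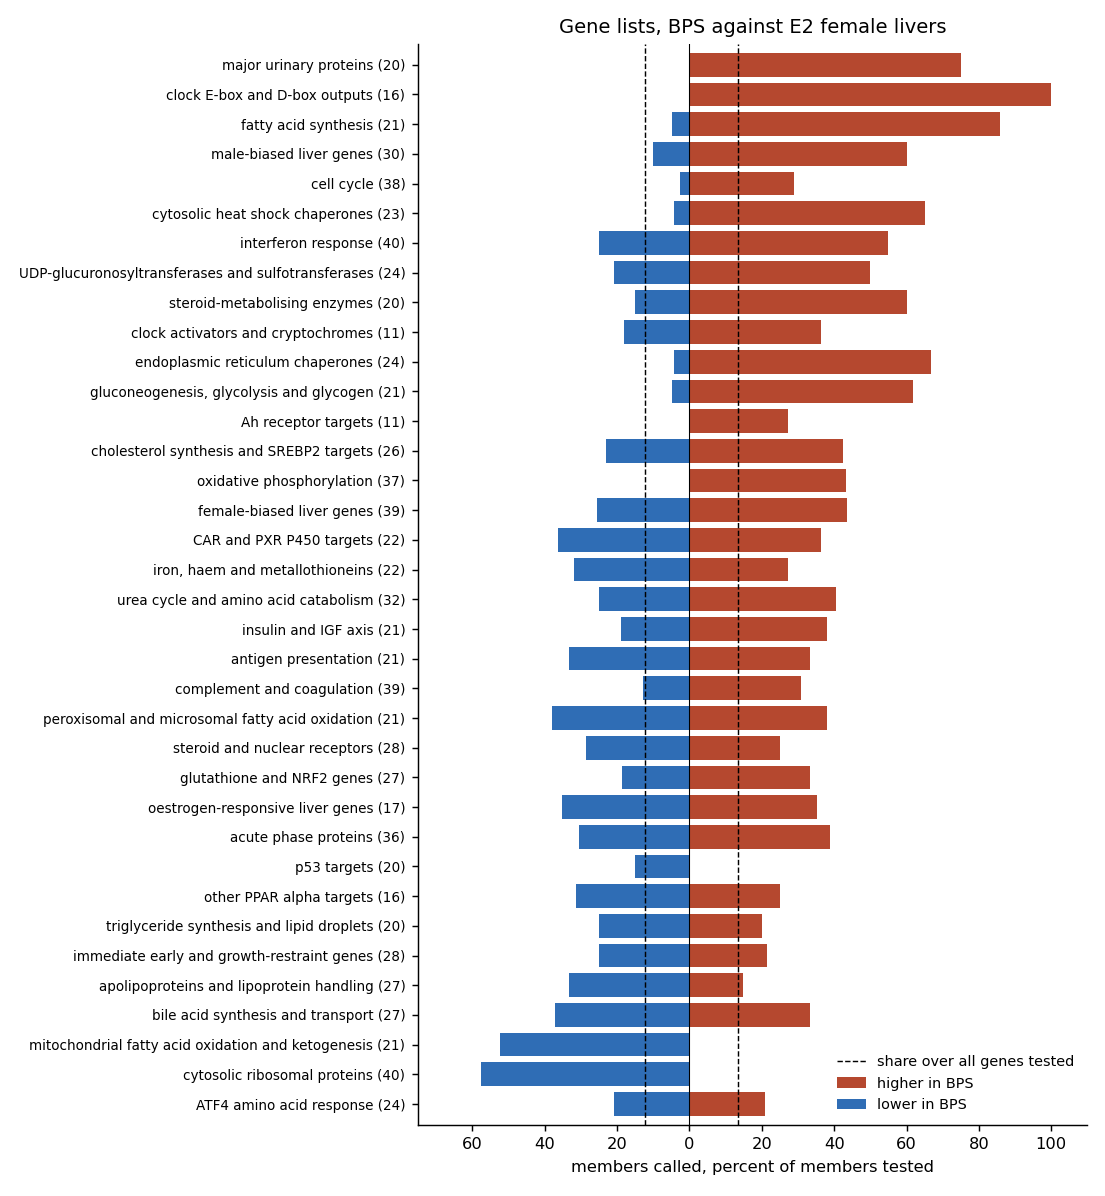
Share of tested members called, in percent, for 36 gene lists, with the number of members tested in parentheses and lists ordered by median log2 fold change. Red bars to the right are members higher in BPS, blue bars to the left members lower, and dashed lines give the shares over all genes, 13.4% and 12.2%; clock outputs reach 100% on the right, and ribosomal proteins, mitochondrial oxidation and p53 targets have bars on the left alone.

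Genes that are male-biased in mouse liver were mostly higher in BPS females, 18 of 30 against 3 lower (median 0.55), and female-biased genes were mixed, 17 of 39 higher and 10 lower (median 0.14). Hsd3b5, a male-specific steroid dehydrogenase, had 53.1, 55 and 54.9 CPM in BPS livers, against 13.9, 12.7 and 11 CPM in E2 livers (log2 fold change 2.11 ± 0.08, adjusted p = 4.02e-22). Every BPS value was more than 3 times every E2 value, while control livers had 46, 43.1 and 46.2 CPM. Selenbp2 (1.13 ± 0.05), a selenium-binding protein gene, and Nudt7 (1.22 ± 0.06), a peroxisomal hydrolase of CoA, were higher as well. Igfbp2, described above and also on the male-biased list, was among the 3 lower. Among female-biased genes Cyp2a4, a testosterone hydroxylase, averaged 1380 ± 84.5 CPM in BPS livers and 499.8 ± 26.1 CPM in E2 livers (1.47 ± 0.06). Ntrk2, a neurotrophin receptor gene, had 13, 12.8 and 16.7 CPM in BPS livers, against 2.16, 2.5 and 2.83 CPM in E2 livers (2.50 ± 0.18). Sult3a1 (−0.50 ± 0.05), Sult2a1 (−0.58 ± 0.05) and Cyp17a1 (−0.48 ± 0.07), female-biased in the same list, were lower in BPS.

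The major urinary proteins, pheromone carriers secreted by the liver, were higher in BPS for 15 of 20 members and lower for none (median 1.22). Mup16 had 91.5, 105 and 137 CPM in BPS livers, against 12, 11 and 6.57 CPM in E2 livers (3.50 ± 0.21), and Mup15 355, 386 and 397 CPM in BPS livers, against 25.6, 42.1 and 42 CPM in E2 livers (3.37 ± 0.40). Both genes were named under a rule that required no overlap between the groups, so its absence is no result. Control livers ranged from 347 to 1140 CPM for Mup15, wider than either exposed group. Mup3, one of the more abundant members, averaged 3354 ± 106 CPM in BPS livers and 1840 ± 137 CPM in E2 livers (0.87 ± 0.06). Mup genes are nearly identical in sequence, so single members are uncertain and their counts are not independent of each other.

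Cytochrome P450 genes of xenobiotic metabolism moved in opposite directions within the same list of CAR and PXR targets, 8 of 22 higher and 8 lower. Cyp3a11, the main inducible 3A enzyme of mouse liver, had 514, 573 and 617 CPM in BPS livers, against 1490, 1505 and 1457 CPM in E2 livers (log2 fold change −1.39 ± 0.06, adjusted p = 2.52e-18). BPS livers were below and E2 livers above the controls at 928, 825 and 969.7 CPM, a pattern shared by the neighbouring gene Cyp3a59, with 18.2, 17.7 and 19.4 CPM in BPS livers, against 66.7, 63 and 57.1 CPM in E2 livers (−1.76 ± 0.09). Cyp2b10, the usual marker of CAR activity, was higher in BPS, with 19.3, 21 and 23.3 CPM in BPS livers, against 6.44, 8.17 and 6.95 CPM in E2 livers (log2 fold change 1.56 ± 0.11, adjusted p = 2.14e-14). Cyp2a5, a coumarin hydroxylase, averaged 1129 ± 87.9 CPM in BPS livers and 303 ± 9.2 CPM in E2 livers (1.90 ± 0.06) and Cyp2a12 416 ± 11.7 CPM in BPS livers and 145 ± 6.28 CPM in E2 livers (1.52 ± 0.05). Alas1, the first enzyme of haem synthesis, averaged 805 ± 48.9 CPM in BPS livers and 423 ± 15.8 CPM in E2 livers (0.93 ± 0.05), and Cyp2c29 averaged 1101 ± 90.6 CPM in BPS livers and 992 ± 50.5 CPM in E2 livers with no call (0.15 ± 0.06). Cyp2c29 was called higher with library totals alone (adjusted p = 0.0268) and without BPS replicate 1 (0.00752) or E2 replicate 2 (0.025). Cyp2a4 and Cyp2a5 are close copies, as are members of the 3a and 2c clusters, so reads may be shared within each cluster.

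Cyp1a2, a caffeine- and estradiol-oxidising enzyme, had 404, 445 and 430.2 CPM in BPS livers, against 193, 206 and 202 CPM in E2 livers (log2 fold change 1.09 ± 0.05, adjusted p = 3.03e-18), with the groups apart. It was 1 of 3 called among 11 Ah receptor targets, all higher, whereas Cyp1a1 (0.37 ± 0.30) and Nqo1 (−0.39 ± 0.15) were not called. Without E2 replicate 1 Nqo1 was called lower (adjusted p = 0.028), as it was with RLE factors (0.0494), with no filter (0.0435) and with the 6 libraries alone (0.0437). Conjugating enzymes leaned higher, with 12 of 24 UDP-glucuronosyltransferases and sulfotransferases higher and 5 lower, the 5 falling to 3 without BPS replicate 1 or E2 replicate 3. Ugt2b37 averaged 124 ± 9.01 CPM in BPS livers and 45.9 ± 4.74 CPM in E2 livers (1.43 ± 0.07). Sult1e1, which inactivates estradiol by sulfation, averaged 3.22 ± 0.257 CPM in BPS livers and 0.779 ± 0.341 CPM in E2 livers (2.04 ± 0.25), with control livers at 7.11, 8.15 and 6.28 CPM. Among 27 glutathione and NRF2 genes 9 were higher, mostly transferases such as Gstm3 (1.45 ± 0.09) and Gsta3 (0.76 ± 0.05), and 5 lower.

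Steroid-metabolising enzymes were higher for 12 of 20 members and lower for 3 (median 0.27), with Hsd3b2 (1.17 ± 0.09) and Hsd3b3 (0.73 ± 0.05) next to Hsd3b5. Of 28 steroid and nuclear receptor genes, 7 were higher and 8 lower. Esr1, the receptor for estradiol, had 36, 35.9 and 36.3 CPM in BPS livers, against 19.3, 11.7 and 19.4 CPM in E2 livers (log2 fold change 1.10 ± 0.13, adjusted p = 5.14e-06). The 3 BPS livers were within 1 CPM of each other, E2 replicate 2 was the lowest of all, and control livers had 24.1, 20.7 and 20.01 CPM. Esr1 was 0.74 ± 0.13 against control in BPS and −0.36 ± 0.14 in E2, and the value for E2 was not called (adjusted p = 0.0719). It was called with DESeq2 (0.0207), with library totals alone (0.0455) and without E2 replicate 1 (0.027) or 3 (0.0199). Hnf4a, a master regulator of hepatocyte genes, averaged 929.5 ± 28.1 CPM in BPS livers and 681 ± 26.2 CPM in E2 livers (0.45 ± 0.05). The list of oestrogen-responsive liver genes was divided evenly, 6 of 17 higher and 6 lower (median 0.00). Lifr, a cytokine receptor gene, was among the higher ones (0.94 ± 0.06), and Gadd45g (−0.41 ± 0.10) and Nr0b2 (−0.32 ± 0.09), which encodes the repressor SHP, among the lower. The full palindrome of the oestrogen response element, GGTCANNNTGACC, occurred in 23 of 32851 promoter windows, in 1 of the 11055 tested genes, and in none of the 1465 higher or 1343 lower genes with a window. This says only that these letters are absent from these windows.

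Bile acid genes changed in both directions, 9 of 27 higher and 10 lower. Cyp8b1, which sets the share of cholic acid, had 301, 326 and 335 CPM in BPS livers, against 578, 638 and 589.9 CPM in E2 livers (log2 fold change −0.91 ± 0.06, adjusted p = 2.09e-15), with no overlap. Slco1a4, a hepatic uptake transporter, averaged 82.9 ± 6.89 CPM in BPS livers and 184 ± 13.2 CPM in E2 livers (−1.15 ± 0.07) and the phospholipid flippase gene Abcb4 387 ± 18.7 CPM in BPS livers and 555 ± 13.2 CPM in E2 livers (−0.52 ± 0.05). Cyp7a1, which begins and limits the classical route from cholesterol to bile acids, was slightly higher in BPS (0.30 ± 0.06), and so was the sterol exporter gene Abcg8 (0.63 ± 0.06).

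Interferon-stimulated genes were called in both directions. Of 40 tested, 22 were higher in BPS and 10 lower, and the 10 were mostly interferon-inducible GTPases of the IRG and GBP families, which guard against intracellular parasites. This split by kind was drawn after the values were seen. Tgtp1, an IRG family GTPase, had 16.5, 18.4 and 16.4 CPM in BPS livers, against 119, 127 and 114 CPM in E2 livers (7.05-fold lower, log2 fold change −2.82 ± 0.07, adjusted p = 1.88e-27). All 3 E2 livers were above 100 CPM, and BPS livers were near control livers, which had 18, 17.8 and 18.7 CPM (log2 fold change of BPS minus control −0.09 ± 0.07, not called). Igtp (−0.87 ± 0.06), Iigp1 (−0.59 ± 0.05), Gbp2 (−0.87 ± 0.08) and Ifi47 (−0.85 ± 0.08) were lower by less. The near copy Tgtp2, at 15.8 ± 1.02 CPM in BPS livers and 20.1 ± 0.719 CPM in E2 livers, was lower by a smaller amount (−0.34 ± 0.08), and reads may be shared by the pair. Irf7, a master factor of antiviral interferon, averaged 89.6 ± 3.83 CPM in BPS livers and 59.7 ± 2.81 CPM in E2 livers (0.59 ± 0.06). The antiviral effectors Ifit1 (0.87 ± 0.08), Ifit3 (0.97 ± 0.09) and Oas2 (0.81 ± 0.19), and the chemokine gene Cxcl9 (1.12 ± 0.09), were also higher in BPS.

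The Tgtp1 promoter is shown because Tgtp1 was the gene lower in BPS with the smallest p and carries an interferon-type element. The window, from RefSeq on GRCm38.p6, is chr11:48992197-48992496 on the minus strand, with the match to GAAANNGAAA, a pattern of interferon-stimulated response elements, in capitals at −77 from the start.

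Tgtp1: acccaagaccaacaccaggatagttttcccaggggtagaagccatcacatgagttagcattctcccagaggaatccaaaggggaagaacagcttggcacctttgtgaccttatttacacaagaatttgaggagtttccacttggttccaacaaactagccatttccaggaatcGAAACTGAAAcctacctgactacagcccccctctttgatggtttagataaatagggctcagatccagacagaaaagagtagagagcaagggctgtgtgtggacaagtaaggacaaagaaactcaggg

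On either strand, GAAANNGAAA occurs in 3.44% of all windows, in 4% of tested genes with a window and in 21 of 32 members of the interferon list with a window. Members with it include genes higher in BPS (Ifit1, Ifit3, Isg15) and genes lower (Tgtp1, Igtp, Gbp2), so both directions occurred among members with these letters. Among all called genes with a window, 5.87% of those higher in BPS and 3.57% of those lower carried them. Antigen presentation genes were split evenly, with 7 of 21 higher and 7 lower. Tap1, the peptide transporter, averaged 24.4 ± 1.19 CPM in BPS livers and 46.6 ± 5.94 CPM in E2 livers (−0.93 ± 0.08), and the class I genes H2-D1 (−0.44 ± 0.05) and H2-T23 (−0.52 ± 0.06) were lower, while the class II gene H2-Eb1 was higher (1.21 ± 0.09). Without E2 replicate 1, 2 members of this list were higher, and without BPS replicate 2 or E2 replicate 3, 4 were. H2-Q7 had 1.69, 1.41 and 3.21 CPM in BPS livers, against 0.333, 0.201 and 0.275 CPM in E2 livers (log2 fold change 2.94 ± 0.79, adjusted p = 0.0184), and its call was lost without BPS replicate 3 (adjusted p = 0.0638) and without E2 replicate 1 (0.0515), 2 (0.0667) or 3 (0.0606).

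**Figure D4:**
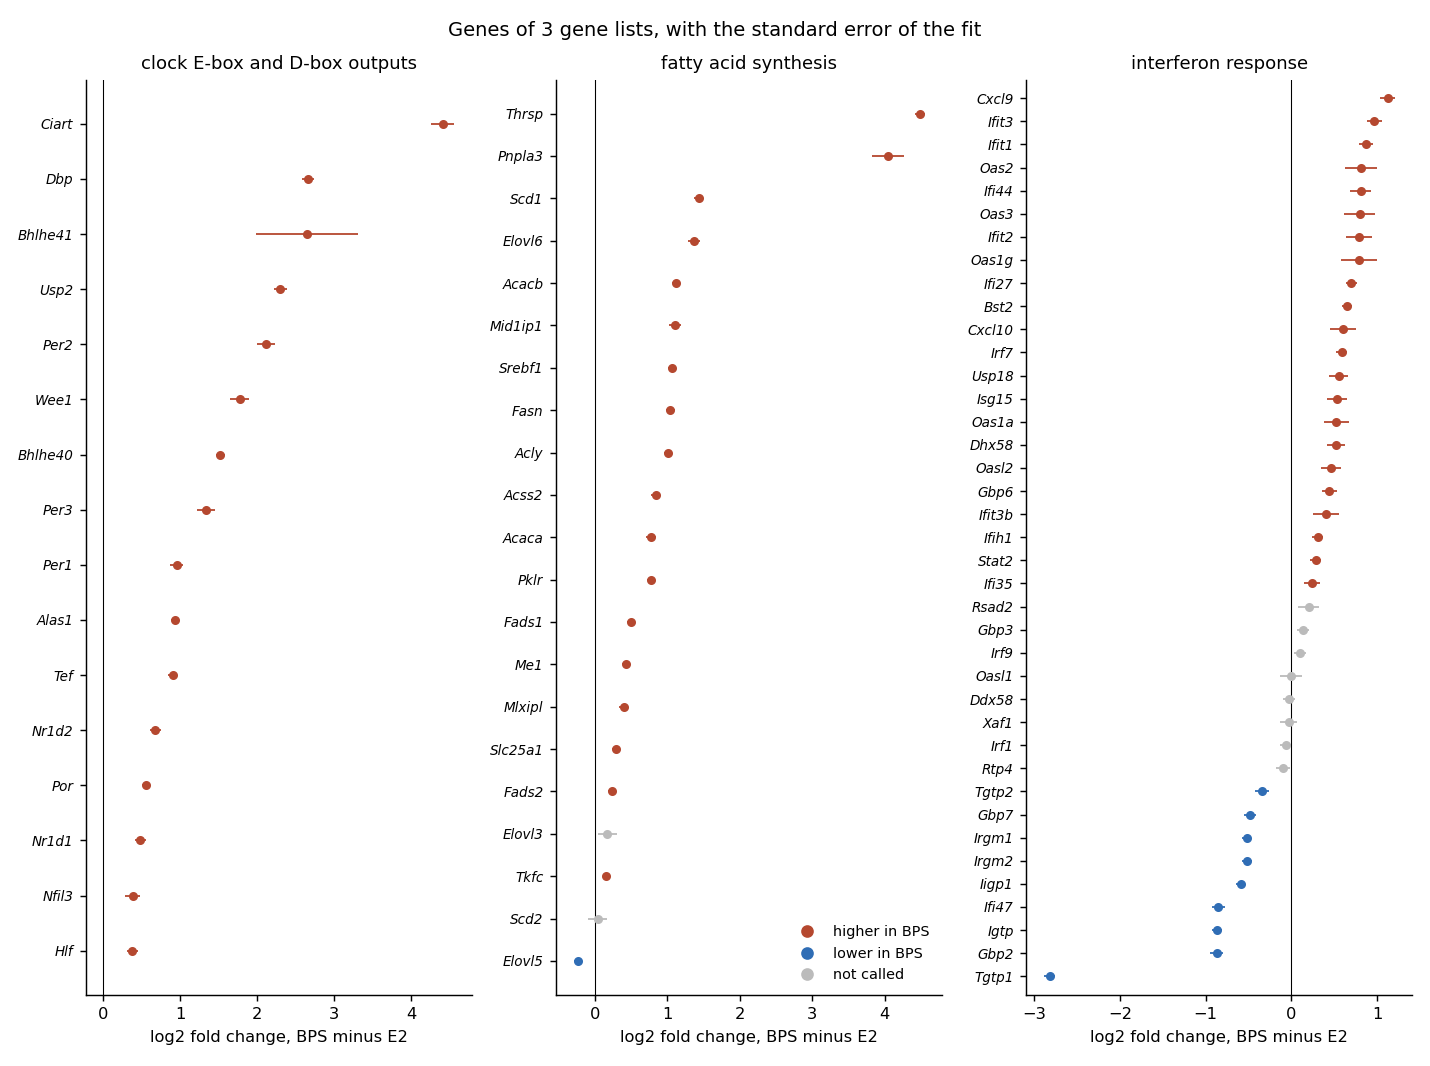
Log2 fold changes, BPS minus E2, with the standard error of the fit for genes of the clock output, fatty acid synthesis and interferon response lists. Red members are higher, blue members lower and grey ones not called; the clock list lies wholly to the right of 0, Thrsp and Pnpla3 stand apart in the second panel, and Tgtp1 stands apart at −2.82 in the third.

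Markers of immune cells moved beside these genes. Of 15 T, B and NK cell markers none was higher and 4 were lower, including the B cell genes Cd79a (0.816 and 2.36 CPM in BPS and E2) and Cd79b (1.13 and 2.17 CPM), and the summed level was 19.8 to 25.7 CPM in BPS and 23.9 to 28.3 CPM in E2. Without BPS replicate 3, 2 of the 15 were lower. Of 12 neutrophil markers 4 were lower, such as Ngp (−0.90 ± 0.19), and 1 was higher, Lcn2, which hepatocytes also make and which set the summed level of 96.6 to 103 CPM in BPS against 69.1 to 73.9 CPM in E2. Kupffer cell and macrophage markers were 5 of 14 higher (3 without BPS replicate 1 or E2 replicate 3) and 3 lower, summing to 1479 to 1581 CPM in BPS and 1386 to 1432 CPM in E2. Cd163, a haemoglobin scavenger receptor (−1.17 ± 0.11), and Marco (−0.61 ± 0.08) were lower and Adgre1 (0.47 ± 0.08), which encodes F4/80, was higher. The part of these cells in the interferon and antigen presentation values was not tested, and in bulk liver fewer cells of a type and less RNA per cell cannot be told apart.

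Cytosolic heat shock chaperones were higher in BPS for 15 of 23 members and lower for 1 (median 0.33). Hspa1b, an inducible HSP70 gene, had 23.8, 25 and 23.7 CPM in BPS livers, against 6.13, 4.58 and 5.25 CPM in E2 livers (log2 fold change 2.18 ± 0.13, adjusted p = 7.5e-16). E2 livers were near the controls, at 4.7, 4.66 and 4.66 CPM, and no E2 or control library reached the BPS values. Hsph1, the HSP110 gene, had 124, 131 and 132 CPM in BPS livers, against 55.3, 55.2 and 55.3 CPM in E2 livers (log2 fold change 1.22 ± 0.06, adjusted p = 9.86e-19), again with E2 and control livers (55.9, 49.8 and 56.2 CPM) alike in level. Chordc1, a partner of HSP90, averaged 46.7 ± 3.4 CPM in BPS livers and 22.6 ± 2.02 CPM in E2 livers (1.04 ± 0.08), the HSP40 gene Dnaja1 343 ± 6.77 CPM in BPS livers and 204 ± 9.18 CPM in E2 livers (0.75 ± 0.05) and the co-chaperone gene Bag3 41.2 ± 0.665 CPM in BPS livers and 20.6 ± 0.732 CPM in E2 livers (1.00 ± 0.09). The small heat shock gene Hspb1 was the member lower in BPS (−1.29 ± 0.22). Hspa1a and Hspa1b are near copies and may share reads.

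The Chordc1 promoter is shown because it holds the heat shock element, the site of heat shock factor 1, at the start of the gene. The window, from RefSeq on GRCm38.p6, is chr9:18292017-18292316 on the plus strand, and the capitals mark 3 overlapping matches to GAANNTTCNNGAA on both strands, the first at −4.

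Chordc1: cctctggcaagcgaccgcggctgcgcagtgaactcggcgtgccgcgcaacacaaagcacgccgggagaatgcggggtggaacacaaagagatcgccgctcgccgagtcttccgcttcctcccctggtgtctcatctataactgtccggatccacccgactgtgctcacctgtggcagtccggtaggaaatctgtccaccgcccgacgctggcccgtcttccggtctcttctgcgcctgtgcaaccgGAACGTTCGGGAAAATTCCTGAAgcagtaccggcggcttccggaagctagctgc

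This pattern occurs in 0.603% of all windows and 0.534% of tested genes with a window, and in 4 of 18 chaperone genes with a window (Chordc1, Hspd1, Hspe1 and Hsph1). Of these 4, Hspd1 was not called (0.05 ± 0.05). Among all called genes with a window, the pattern occurred in 0.819% of those higher in BPS and 0.298% of those lower. Chaperones of the endoplasmic reticulum were higher in 16 of 24 cases and lower in 1 (2 without E2 replicate 2), by smaller amounts (median 0.21). Herpud1, of the degradation complex, averaged 543 ± 28 CPM in BPS livers and 322 ± 10.5 CPM in E2 livers (0.75 ± 0.05), Dnajb9 108 ± 9.93 CPM in BPS livers and 67.1 ± 3.15 CPM in E2 livers (0.69 ± 0.06) and Creld2 52.8 ± 5.63 CPM in BPS livers and 32.7 ± 3.1 CPM in E2 livers (0.69 ± 0.08). Hspa5, the central chaperone BiP, differed by 0.25 ± 0.06, and both groups stood above the controls, by 0.87 ± 0.06 in BPS and 0.63 ± 0.06 in E2.

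Acute phase proteins were divided, 14 of 36 higher and 11 lower in BPS (median 0.00). The serum amyloid genes Saa1, with 74.3, 75.8 and 83.8 CPM in BPS livers, against 27.5, 35.5 and 30.7 CPM in E2 livers (log2 fold change 1.32 ± 0.07, adjusted p = 2.1e-16), and Saa2 (1.56 ± 0.08), which are near copies, were higher with no overlap, as were Saa4 (0.94 ± 0.05), Lcn2 (0.99 ± 0.06), which binds bacterial siderophores, and Orm1 (0.56 ± 0.05), which encodes a plasma glycoprotein. The fibrinogen gene Fgb (−0.33 ± 0.06) and haptoglobin, Hp (−0.28 ± 0.06), were lower. Hamp, the iron hormone hepcidin, had 453, 468 and 451 CPM in BPS livers, against 713, 903 and 799 CPM in E2 livers (log2 fold change −0.82 ± 0.06, adjusted p = 8.51e-13), while its copy Hamp2 was higher (0.90 ± 0.07). Complement and coagulation genes included C9, the last component of the attack complex, at 439 ± 30.9 CPM in BPS livers and 199 ± 5.25 CPM in E2 livers (1.14 ± 0.06). Of 39 such genes 12 were higher and 5 lower (12.8%, near the 12.2% of all genes), or 2 lower without BPS replicate 1.

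Several genes of growth control were lower in BPS. Myc, the growth-promoting transcription factor, had 7.91, 6.97 and 9.86 CPM in BPS livers, against 23.4, 24.4 and 23.8 CPM in E2 livers (log2 fold change −1.53 ± 0.12, adjusted p = 1.1e-12), with control livers at 5.84, 6.32 and 5.32 CPM. Egr1, an immediate early gene, averaged 17 ± 1.25 CPM in BPS livers and 33.1 ± 2.76 CPM in E2 livers (−0.96 ± 0.09). Cdkn1a, which encodes the cell cycle inhibitor p21, had 31.8, 28.3 and 27.5 CPM in BPS livers, against 43.5, 43.9 and 38.1 CPM in E2 livers (log2 fold change −0.52 ± 0.10, adjusted p = 9.69e-05), whereas control livers had only 2.69, 2.94 and 3.85 CPM. All 6 exposed livers thus stood far above every control liver. Of 20 p53 targets 3 were lower (15%, near the 12.2% of all genes) and none higher (1 higher without BPS replicate 3). Of 28 immediate early and growth-restraint genes 6 were higher (21.4%) and 7 lower (25%), against 13.4% and 12.2% of all genes. Cell cycle genes were higher for 11 of 38 members and lower for 1 (2 without BPS replicate 1 or E2 replicate 1), with a median of 0.51. Their levels were low: Top2a, a topoisomerase of dividing cells, had 5.71, 4.06 and 4.82 CPM in BPS livers, against 2, 2.22 and 1.7 CPM in E2 livers (log2 fold change 1.30 ± 0.20, adjusted p = 3.2e-06), and the cyclin genes Ccne2 (1.64 ± 0.31) and Ccna2 (1.32 ± 0.30) were below 3 CPM in every library of both groups.

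Cytosolic ribosomal protein genes were lower in BPS, 23 of 40 with none higher, by a median of −0.22. The count depended on single libraries, with 14 without BPS replicate 3, 15 (and 1 higher) without E2 replicate 2, and 35 without E2 replicate 1. Rps2 was the largest, with 273, 248 and 225 CPM in BPS livers, against 483, 557 and 486 CPM in E2 livers (log2 fold change −1.03 ± 0.07, adjusted p = 6.92e-13), and Rpl30 followed (−0.62 ± 0.06); processed copies of ribosomal genes may share reads. Oxidative phosphorylation genes were higher for 16 of 37 members by a median of 0.15, and for 5 to 9 members without BPS replicate 2 or 3 or E2 replicate 1 or 3. Sdhb, a succinate dehydrogenase subunit, changed most (0.39 ± 0.06).

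Apolipoprotein and lipoprotein genes were more often lower, 9 of 27 against 4 higher (14.8%, near the 13.4% of all genes). Apoa4, a component of chylomicrons and HDL, had 1451, 1442 and 1528 CPM in BPS livers, against 2391, 2860 and 2531 CPM in E2 livers (log2 fold change −0.82 ± 0.06, adjusted p = 7.02e-14), BPS livers being near the control livers at 1491, 1429 and 1492 CPM. Apoa1 (−0.42 ± 0.06) and the lipoprotein lipase gene Lpl (−0.83 ± 0.10) were lower as well. In amino acid catabolism 13 of 32 genes were higher and 8 lower. The transsulfuration genes Cth (−0.67 ± 0.05) and Cbs (−0.55 ± 0.05) were lower. Of 22 iron and haem genes 6 were higher and 7 lower, and of 24 ATF4 targets 5 were higher (2 or 3 without any 1 library other than E2 replicate 2) and 5 lower, with Atf5, a stress-induced transcription factor, at 358 ± 18.6 CPM in BPS livers and 636 ± 60.1 CPM in E2 livers (−0.83 ± 0.06). Among 16 other PPARα targets 4 were higher and 5 lower.

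Genes with large changes outside these groups included Upp2, a uridine phosphorylase with 739, 789 and 759 CPM in BPS livers, against 205, 183 and 190.2 CPM in E2 livers (log2 fold change 1.98 ± 0.05, adjusted p = 9.21e-26), and Serpina6, the plasma carrier of glucocorticoids, with 531, 609.5 and 571 CPM in BPS livers, against 159.6, 163 and 156 CPM in E2 livers (log2 fold change 1.84 ± 0.06, adjusted p = 1.04e-23). In control livers Upp2 had 673, 681 and 686 CPM and Serpina6 607, 586 and 599.6 CPM, near the BPS and far above the E2 values. Slc22a7, the organic anion transporter OAT2, averaged 45.5 ± 2.58 CPM in BPS livers and 9.9 ± 1.01 CPM in E2 livers (2.20 ± 0.08). Camk2b, a calcium-dependent kinase gene, averaged 6.77 ± 1.27 CPM in BPS livers and 0.319 ± 0.162 CPM in E2 livers (4.40 ± 0.24). Havcr1, a phosphatidylserine receptor, had 208 counts over the 3 BPS libraries and 3 over the E2 libraries, a ratio of 73.6 with a 95% counting interval of 24.8 to 360. Cyp2j11 had 33 counts in BPS and 0 in E2, at least 11.7-fold higher against a floor of 3 counts over the group, and Fam184b had 0 in BPS and 39 in E2, at least 12.3-fold lower.

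On the lower side, Rad51b, a recombination gene, had 37.5, 36.6 and 36.8 CPM in BPS livers, against 101, 114 and 94.6 CPM in E2 livers (log2 fold change −1.48 ± 0.07, adjusted p = 2.83e-18). Fbxo21, a ubiquitin ligase adaptor, averaged 70.1 ± 2.67 CPM in BPS livers and 159 ± 4.83 CPM in E2 livers (−1.18 ± 0.06), the cyclic GMP phosphodiesterase gene Pde9a 8.07 ± 0.473 CPM in BPS livers and 28.2 ± 1.32 CPM in E2 livers (−1.80 ± 0.10) and Retsat, a retinol saturase, 508 ± 17.4 CPM in BPS livers and 1078 ± 55.3 CPM in E2 livers (−1.08 ± 0.06). Fst, which encodes the activin antagonist follistatin, was at 0.489 ± 0.244 CPM in BPS livers and 4.3 ± 0.495 CPM in E2 livers (−3.12 ± 0.35), with control livers at 3.77, 3.57 and 3.59 CPM. H2bc8, a histone gene (−2.85 ± 0.22), Pianp (−2.60 ± 0.25) and the guanylate cyclase receptor gene Gucy2c (−2.06 ± 0.24) were below 8 CPM in all 6 libraries. Slc4a1, the anion exchanger of red cells, had 0.694, 0.75 and 0.725 CPM in BPS livers, against 5.44, 5.07 and 4.18 CPM in E2 livers (log2 fold change −2.75 ± 0.26, adjusted p = 1.31e-10). The erythroid gene Ahsp (−2.32 ± 0.49) was lower with it, whereas the globin Hbb-bs (0.39 ± 0.13) and Alas2 (0.49 ± 0.12) were among 3 markers higher, a count of 1 without BPS replicate 2 or E2 replicate 2, and the 14 erythroid markers summed to 412 to 500 CPM in BPS and 355 to 398 CPM in E2.

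Of 10 hepatocyte markers 3 were higher and 2 lower, with a median of 0.01. Sinusoidal endothelial markers were 4 of 12 higher (2 without E2 replicate 1) and none lower (706 to 738 CPM summed in BPS, 638 to 696 CPM in E2), and stellate cell markers 3 of 13 higher and 1 lower, or 2 lower without E2 replicate 1 (573 to 584 CPM in BPS, 554 to 582 CPM in E2). Cholangiocyte markers had 1 of 8 lower, or none without BPS replicate 2 or E2 replicate 1 (37.2 to 41.6 CPM in BPS, 36.0 to 45.0 CPM in E2) and 9 muscle markers had no call (2.75 to 14.7 CPM in BPS, 9.29 to 10.3 CPM in E2). Of 4 tested adipocyte markers 2 were higher and none lower, with a median of 0.98 and sums of 1057 to 1123 CPM in BPS and 483 to 502 CPM in E2. The 2 higher were Fabp4 (0.64 ± 0.12) and Car3 (1.15 ± 0.05), which is also made by hepatocytes and, at 1065 ± 35 CPM in BPS livers and 481 ± 9.21 CPM in E2 livers, formed most of the sum, while the adipocyte hormone gene Adipoq was below 1 CPM in both groups (0.318 and 0.181 CPM). The adipocyte gene Cfd just missed the call in the main edgeR fit (adjusted p = 0.05). It was called higher with DESeq2 (log2 fold change 1.62, adjusted p = 0.0283), with no filter (0.0385) and with the 6 libraries alone (0.0149). All 4 tested adipocyte markers had positive log2 fold changes. Of 4 tested pancreatic and gut genes 1, the elastase gene Cela1, was higher (1.56 ± 0.09) and none lower, with a list median of 0.93 and sums of 153 to 156 CPM in BPS and 126 to 152 CPM in E2, while Pnlip, Prss2, Cela3b and Zg16 were at 0 in all 6 libraries. The part of these cells in the other results was not tested.

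The same contrast in males used 3 BPS and 3 E2 male livers that share no library with the females. In males 2284 of 13474 genes were higher in BPS (17%) and 2764 lower (20.5%); scaled by library totals alone the counts were 3562 and 1812, with the median of all genes moving to 0.11, against −0.01 with TMM. Over 13327 genes tested in both sexes, 596 were higher in both, 32.2% of the female and 26.3% of the male genes higher in BPS. Both sexes were lower for 590 genes, 35.4% of the female and 21.5% of the male ones. Opposite calls were not rare: 415 genes were higher in females and lower in males, and 268 the reverse. The difference between the sexes, tested as an interaction over all 30 libraries, passed for 1994 genes in the positive direction (14.1% of 14131), meaning a higher BPS minus E2 value in females, and for 1883 in the negative (13.3%), or 1451 and 2697 with library totals alone.

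Several clock genes, and the lipogenic gene Thrsp, had the same direction in males. Dbp averaged 69.2 ± 5.16 CPM in BPS males and 16.2 ± 1.31 CPM in E2 males (2.10 ± 0.07) and Thrsp 478 ± 21.4 CPM in BPS males and 53.3 ± 1.31 CPM in E2 males (3.17 ± 0.09). Females exceeded males by 0.52 ± 0.10 for Dbp and 1.28 ± 0.09 for Thrsp, each past the interaction test. Ciart was higher in males by 1.34 ± 0.15. Of 16 clock outputs, 11 were higher and 2 lower in males. Of 21 fatty acid synthesis genes 9 were higher and 8 lower in males (median 0.03). Acly was not called in males (0.03 ± 0.05). Scd1 had the opposite direction, with 196 ± 6.69 CPM in BPS males and 412 ± 0.885 CPM in E2 males (−1.07 ± 0.04), a female minus male difference of 2.46 ± 0.07. Cyp4a14 and Ehhadh, lower in BPS females, were higher in BPS males, by 0.83 ± 0.05 and 0.76 ± 0.04. Of 21 mitochondrial oxidation genes 12 were higher and 3 lower in males, and Etfdh, an electron transfer enzyme of that list, was lower in both sexes (−0.28 ± 0.05 in females, −0.13 ± 0.04 in males). The male call of Etfdh was lost with library totals alone, where its log2 fold change was −0.008. It was also lost without male BPS replicate 1 or 2 and without male E2 replicate 3. Tgtp1 was far lower in level in male livers, 8.78 ± 0.536 CPM in BPS males and 4.88 ± 0.389 CPM in E2 males (0.85 ± 0.17), and its difference between sexes was −3.71 ± 0.14. Esr1 fell to 12.2 ± 1.44 CPM in BPS males, against 22.9 ± 3.5 CPM in E2 males (−0.91 ± 0.12). That direction was opposite to females, with a female minus male difference of 1.97 ± 0.20. Acute phase genes differed as well. Saa1 had 222, 231 and 198 CPM in BPS males, against 7704, 8054 and 7969 CPM in E2 males (−5.19 ± 0.07), a difference from females of 6.47 ± 0.11, and all 3 E2 males were above every other library of the 4 groups. In males 31 of 35 acute phase genes were lower in BPS and none higher, and cholesterol synthesis genes were 23 of 26 lower and 1 higher. Whether the lists as wholes differ between the sexes was not tested.

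**Figure D5:**
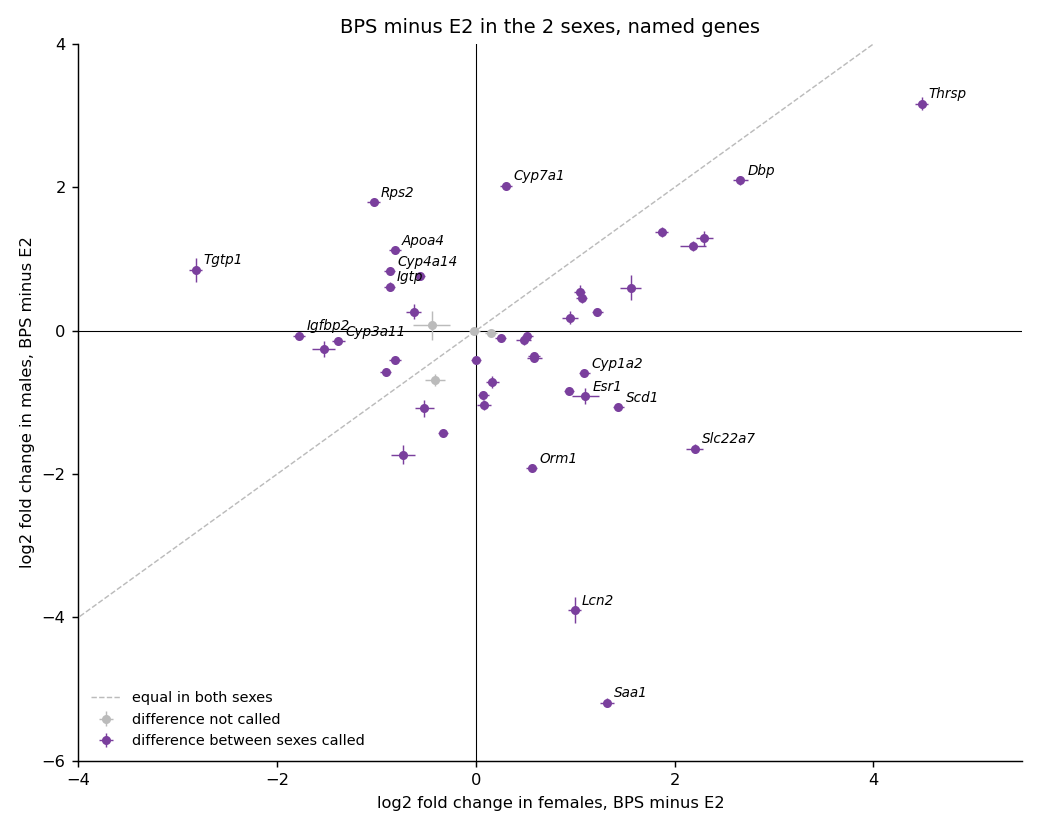
Log2 fold changes, BPS minus E2, in females (x axis) and males (y axis) for panel genes and those with the smallest p for a sex difference; bars are standard errors and the dashed line marks equal values. Dbp and Thrsp lie in the upper right, where both sexes are higher in BPS, Saa1 and Lcn2 far below it, and Tgtp1, Rps2 and Cyp4a14 in the upper left, where the sexes differ in direction.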

How the data were processed

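Libraries were made from total liver RNA with a SMARTER mRNA-Seq kit, per the labels' protocols. Per the submitters' processing notes, reads were handled with HISAT2, HTSeq, R 3.2.0 and DESeq2; no source used here names the genome build, annotation or strand setting, so antisense partners cannot be told apart, and near-identical copies may share reads. The authors deposited raw counts per gene, and these were tested. The authors also deposited FPKM values, counts scaled by library total and gene length, used only to set levels of different genes side by side.

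Counts of the 15 female libraries were fitted in 1 model with edgeR 4.0.16 in R 4.3.3 (filterByExpr by group, TMM factors, robust quasi-likelihood fit and test), so that 5 groups share an estimate of the spread, with Benjamini-Hochberg adjustment over all 13874 genes and a threshold of 0.05. Males were fitted alike, and the sex difference was an interaction over 30 libraries. The scripts were tested on simulated data. Alternatives were other scaling factors, no filter, DESeq2 1.42.0, other sets of libraries, a minimum fold change, a replicate block and leaving out each library. A floor of 3 counts over a group was used where a group had none, and intervals cover counting error only.

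The comparison, its 36 pathway and 11 marker lists and a panel of 40 genes were chosen with earlier results of these data known. Genes were named by rule: the 12 largest changes and 8 smallest p values in each direction, up to 4 members with the smallest p per list, the panel, and 5 genes in each direction for the sex difference. Except for the lists and the panel, they had to be called and to average at least 1 CPM over the libraries compared. Names of predicted genes, clones and pseudogenes were excluded there. The 12 largest also had to show no overlap between the BPS and E2 libraries, so for them its absence is no result. Other list members named in the text, such as Per2, Elovl6 and Ifit1, were chosen after their values were seen. Some genes are not reported here. Promoter windows from RefSeq (GRCm38.p6) matched 11055 of the genes tested by symbol.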

Additional observations from a re-analysis of the deposited data

Results flagged for a closer look

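The BPS minus E2 effect differed between the sexes, by the interaction test of edgeR over all 30 libraries, for 1994 genes in the positive direction (a higher signed value in females) and 1883 in the negative. The values that follow are female minus male differences in log2 fold change. Among acute phase genes the difference was 6.47 for Saa1, 4.85 for Lcn2, 2.44 for Orm1 and 1.73 for Saa4, each a higher signed value in females. Slc22a7, an organic anion transporter, differed by 3.81, the desaturase Scd1 by 2.46, the receptor genes Esr1 by 1.97 and Ppara by 0.93, Cyp1a2 by 1.64, Irf7 by 0.90 and the chaperone Hspa5 by 0.31. Lower signed values in females were found for the interferon-inducible GTPases Tgtp1 (−3.71) and Igtp (−1.53), the ribosomal protein Rps2 (−2.86), the apolipoprotein Apoa4 (−1.98), Cyp7a1 of bile acid synthesis (−1.76), Igfbp2 (−1.75), Cyp4a14 (−1.74) and the peroxisomal enzyme Ehhadh (−1.36). These genes were those with the smallest p for the sex difference, and panel genes called in both sexes in opposite directions and past the interaction test. Opposite direction was thus a condition for the panel genes, and their sizes describe the genes chosen. For Hspa5 the male call (adjusted p = 0.0344) was lost with RLE factors (0.0815), DESeq2 (0.0963) and the male BPS and E2 libraries alone (0.0854). It was also lost without male BPS replicate 2 (0.0575) or 3 (0.644) and without male E2 replicate 2 (0.313) or 3 (0.112). Dbp and Thrsp, panel genes past the interaction test with the same direction in both sexes, were left out by this rule. With 3 samples a group, no single library was tested as an outlier.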

How the results depend on the processing

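Under the alternatives that scale, filter or select libraries, the female counts stayed within 1.5 times of 1862 higher and 1686 lower, at 1528 to 1926 and 1403 to 1864, and leaving out each library gave 1505 to 1756 and 1328 to 1761. In males leaving out each library gave 2082 to 2207 higher and 2281 to 2704 lower, and for the sex difference, where only the 6 female BPS and E2 libraries were left out in turn, 1923 to 2220 positive and 1404 to 1773 negative. A minimum log2 fold change of 1 in the test itself left 84 higher and 32 lower in females, 56 and 84 in males, and 101 positive and 62 negative for the difference, which follows from the stricter hypothesis. Library totals alone moved the male counts to 3562 higher and 1812 lower and reversed the male values of Alb to 0.11, Cyp2c29 to 0.0882 and Hspa5 to 0.0144; the cause was not tested. Replicate numbers did not pair the livers (correlations of deviations −0.00, 0.03 and 0.01 for the same numbers); with the number as a replicate block the counts were 1840 and 1651 in females, 2278 and 2736 in males and 1974 and 1853 for the difference. Of 226 named genes, 205 were called between BPS and E2 females; 11 lost the call under at least 1 alternative (among them Ccl5, Cd79b, Clec4g, Cox5a, H2-Q7, Hand2, Retnlg, S100a9, Tie1 and Ugt1a6b), 5 gained one and none reversed. In males 150 of 221 named genes were called, 19 of these lost the call under at least 1 alternative, 30 others gained one and 3 reversed. For the sex difference 162 of 226 were called, 10 of these lost the call, 16 others gained one and none reversed. The same alternatives for the contrasts with control livers were added after seeing the data; of the named genes called there, 30 in BPS and 23 in E2 lost the call under at least 1 of them, and none reversed.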

Other observations

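Several other genes with large differences belong to no list. Rims4, of a family of presynaptic scaffold proteins, had 5.94, 4.53 and 6.11 CPM in BPS livers, against 0.749, 0.748 and 0.275 CPM in E2 livers (log2 fold change 3.22 ± 0.24, adjusted p = 2.22e-13). Tiam2, an activator of the GTPase RAC1, had 3.97, 3.84 and 3.47 CPM in BPS livers, against 0.638, 0.201 and 0.275 CPM in E2 livers (log2 fold change 3.32 ± 0.32), and Grid1, a glutamate receptor subunit, 1.94, 3.47 and 2.05 CPM in BPS livers, against 0.222, 0.633 and 0.11 CPM in E2 livers (2.95 ± 0.52). These genes were named under a rule that required no overlap between the groups, so its absence is no result. BPS libraries lay wholly above E2 libraries for 18.5% of all genes tested. All values of these genes were below 7 CPM. Lower in BPS were Plppr1, of a family of neuronal membrane proteins, with 0.721, 0.937 and 1.07 CPM in BPS livers, against 5.33, 5.15 and 5.19 CPM in E2 livers (−2.52 ± 0.27), Nckap5 (−1.82 ± 0.30), Prr36 (−2.42 ± 0.39), Cgref1 (−2.18 ± 0.39), Tc2n (−2.41 ± 0.46) and Tnfaip8l3 (−3.14 ± 0.49). Gabra3, a GABA receptor subunit, had 92 counts over the BPS livers and 1 over the E2 livers, a ratio of 97.6 with a 95% counting interval of 17.1 to 3896. Dpf1, a neuronal chromatin protein, had 1 count over the BPS livers and 68 over the E2 livers, an E2 over BPS ratio of 64.1 with an interval of 11.1 to 2569. They were gathered here after their values were seen, and no test of the group was made.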
